A study of Mus musculus with 10 samples.

Results

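The mitochondrially encoded genes are the 37 rows that the deposited table places on the mitochondrial chromosome, of 54532 rows in all. They are all the rows with that annotation, split by biotype into 13 mRNAs, 2 rRNAs and 22 tRNAs. All 37 have the chromosome, start, end, strand and length of the GENCODE M21 gene on the mouse genome build GRCm38. They were read in poly(A)-selected RNA from the hearts of 10 mice, 5 given vehicle and 5 given trametinib, an inhibitor of the kinases MEK1 and MEK2.

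All 10 mice carried the genotype Rit1 M90I/+, a germline variant of the small GTPase RIT1 and a mouse model of Noonan syndrome. It came from a conditional allele recombined in the offspring of a deleter line, whose Cre is driven by the cytomegalovirus promoter, so the variant is not limited to one cell type. No wild-type heart was analysed here. From an age of 4 weeks, treated mice received a daily dose of 1 mg/kg trametinib in carboxymethylcellulose and Tween 80 over 20 weeks, and the control mice received vehicle. The study's methods describe hearts of this trial fixed overnight in formalin, but whether the hearts used for RNA were fixed, and which part of them was used, is not given in the sources used here. The labels call the samples biological replicates.

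Mitochondrial DNA is a small circle that encodes subunits of respiratory complexes I, III, IV and V together with the rRNAs and tRNAs that translate them. Both strands are transcribed as long precursors, and most mRNAs and both rRNAs are released by excision of the tRNAs that lie between them. Nuclear genes supply all other parts of the system, including the polymerase, the ribosomal proteins and most subunits of the complexes. Heart muscle is rich in mitochondria, and its RNA is rich in these transcripts.

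The genes lie so close together that some share bases, and several have near-identical copies among nuclear transcripts. Both features decide which row a sequenced fragment can be assigned to, so the stretches concerned are shown first. Sequences are from the GENCODE M21 transcripts, 5′ to 3′. In the first line, the 43 bases that belong to both mt-Atp8 and mt-Atp6 are in capitals (chrM:7897-7999, plus strand). In the second, the 14 bases in capitals belong to both mt-Nd5 and mt-Nd6, which are read from opposite strands (chrM:13522-13595, plus strand shown).
mt-Atp8 and mt-Atp6: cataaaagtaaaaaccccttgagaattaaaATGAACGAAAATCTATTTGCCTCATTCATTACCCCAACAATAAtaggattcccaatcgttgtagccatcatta
mt-Nd5 and mt-Nd6: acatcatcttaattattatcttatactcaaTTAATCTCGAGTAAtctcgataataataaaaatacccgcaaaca

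A cluster of such copies consists of 7 annotated pseudogenes on the minus strand of chromosome 1, between bases 24611535 and 24616197 of GRCm38. The first 60 bases of mt-Co2 (chrM:7013-7072, plus strand) and of its copy Gm28661 (chr1:24615506-24615565, minus strand) show the likeness. The 7 copies were aligned to their genes with blastn, which took in 483 of the 492 bases of Gm29216. The other lines show, in capitals, the 2 single-base differences found between the aligned bases. These are A1066T between mt-Co1 and Gm29216 (chrM:6390-6423 and chr1:24616155-24616188) and T3C between mt-Nd3 and Gm28438 (chrM:9459-9491 and chr1:24613087-24613119). Positions are counted from 1 at the 5′ end of the mitochondrial gene, with the mitochondrial base first and that of the copy last. The mitochondrial lines read the plus strand and those of the copies the minus strand.
mt-Co2: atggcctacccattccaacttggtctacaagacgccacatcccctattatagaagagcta
Gm28661: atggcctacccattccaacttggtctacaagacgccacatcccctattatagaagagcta
mt-Co1: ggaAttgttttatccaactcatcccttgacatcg
Gm29216: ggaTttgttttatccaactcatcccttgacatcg
mt-Nd3: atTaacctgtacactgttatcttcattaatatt
Gm28438: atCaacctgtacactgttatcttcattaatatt

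Between 13647167 and 16659254 fragments per vehicle heart and between 14868373 and 18474002 per trametinib-treated heart were recovered from the deposited FPKM (fragments scaled by gene length and library size). The 6 cardiomyocyte markers were present in every heart, with a summed level of 10417 to 13013 FPKM in vehicle hearts and 9858 to 13638 FPKM in trametinib-treated hearts. Sex-linked transcripts divided the hearts as treatment did, since the X-linked Xist had 1456 to 2199 fragments in each trametinib-treated heart and at most 2 in any vehicle heart, and the Y-linked Ddx3y had 814 to 901 in each vehicle heart and 0 in the others. Treatment and what goes with these transcripts cannot be told apart in any comparison below. The 4 macrophage markers, none at 0, summed to 253 to 433 FPKM in vehicle hearts and 190 to 249 FPKM in trametinib-treated hearts, without overlap. This sum is weighted towards the most abundant of them, Lyz2, which had a log2 change of -0.48 (limma adjusted p = 0.456). Haemoglobin transcripts (4 genes) summed to 23485 FPKM in vehicle heart 4 and 25698 FPKM in vehicle heart 5 against 2885 to 7357 FPKM in the others, and the atrial markers Sln, Myl7 and Myl4 to 837, 383 and 678.5 FPKM in vehicle hearts 4 and 5 and trametinib heart 2 against 1.82 to 38.1 FPKM elsewhere. Endothelial, fibroblast, smooth muscle, lymphocyte and adipocyte markers overlapped between the groups. The part of these cell types in the values below was not tested.

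Mitochondrial transcripts made up a large share of every library. The share of all recovered fragments was 24.7, 26.6, 35.0, 30.3 and 31.1% in vehicle hearts 1 to 5 and 24.2, 24.0, 28.7, 26.8 and 27.4% in trametinib hearts 1 to 5. Vehicle heart 3 was the highest, trametinib hearts 1 and 2 and vehicle heart 1 were the lowest, and the groups overlapped. The means were 29.6% ± 4.02 and 26.2% ± 2.07 (SD, n = 5 each), so the trametinib group was lower by 3.35 percentage points. This difference was smaller than the SD of the vehicle group and larger than that of the trametinib group. Without vehicle heart 3 the difference was -1.98 percentage points, and without the 3 hearts with high atrial transcripts it was -2.02. The 95% Wilson interval of a single heart's share reached at most 0.0239 percentage points to either side, which covers counting error only. In bulk tissue, fewer cells rich in mitochondria and less mitochondrial RNA per cell cannot be told apart.

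The mRNAs made up nearly all of this share. They took 27.8% ± 3.80 of all fragments in vehicle hearts and 24.6% ± 1.90 in trametinib-treated hearts (SD, n = 5 each). The rRNAs took 1.69% ± 0.454 and 1.51% ± 0.246, and the tRNAs 0.0782% ± 0.0152 and 0.0787% ± 0.00541. Each of the 3 classes overlapped between the groups. The libraries were selected on poly(A) tails, so these need not be the shares of the classes in unselected heart RNA. Counted per length, as a share of the FPKM sum, mitochondrial rows reached 46.6% ± 5.26 in vehicle hearts and 42.8% ± 2.68 in trametinib-treated hearts, and 8 of the 10 rows with the highest mean FPKM were mitochondrial.

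**Figure D1:**
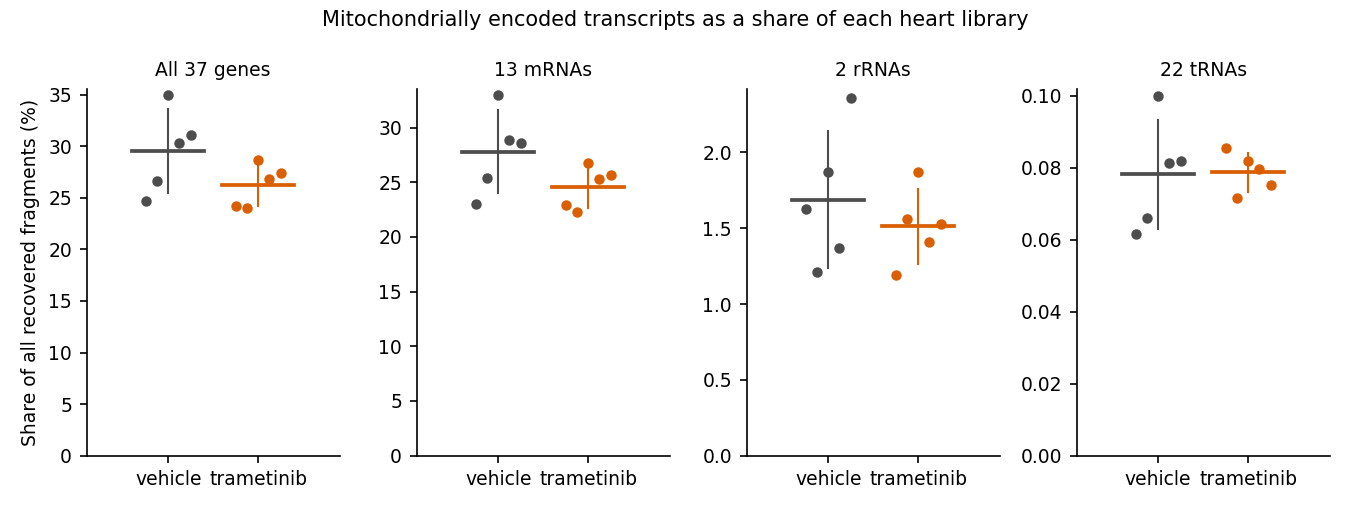
Share of all recovered fragments (%, linear axes from 0) for all 37 genes, the 13 mRNAs, the 2 rRNAs and the 22 tRNAs. Each point is a heart, wide bars are group means and thin bars are SD (n = 5), and in each of the panels the vehicle and trametinib hearts overlap, with vehicle heart 3 the highest for all genes at 35.0%.

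No mitochondrially encoded gene passed the test between trametinib-treated and vehicle hearts. Of the 36 genes tested with limma on log2(FPKM + 0.1), 0 had a Benjamini-Hochberg adjusted p under 0.05, against 10 of 12602 genes tested in all, or 0.0794%. The lowest adjusted p of a member was 0.634 (mt-Ta). At an unadjusted p under 0.05, 1 of 36 members passed, against 7.62% of all genes tested, and voom on the recovered fragments also called 0. The 5 hearts of one group lay apart from those of the other for 0 of the 37 members, against 1.64% of all genes tested.

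The estimates of most members lay below 0, within their intervals. Of the 36, 27 were lower and 9 higher in trametinib-treated hearts, with a median log2 change of -0.21, against 47.9% lower and a median of 0.01 over all genes tested. Of the 13 mRNAs, 10 were below 0 and 3 above (mt-Nd5, mt-Nd4l and mt-Atp8), with a median of -0.20, but with every heart scaled to its own mitochondrial mRNA fragments mt-Nd2, mt-Atp6, mt-Nd3, mt-Nd6 and mt-Cytb turned above 0, as did mt-Nd3 on a TPM scale and mt-Cytb after quantile normalization. That first scaling moved the median of all genes to 0.208. The 37 members share each heart's library and are not independent of each other, so these counts describe the 10 libraries.

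**Figure D2:**
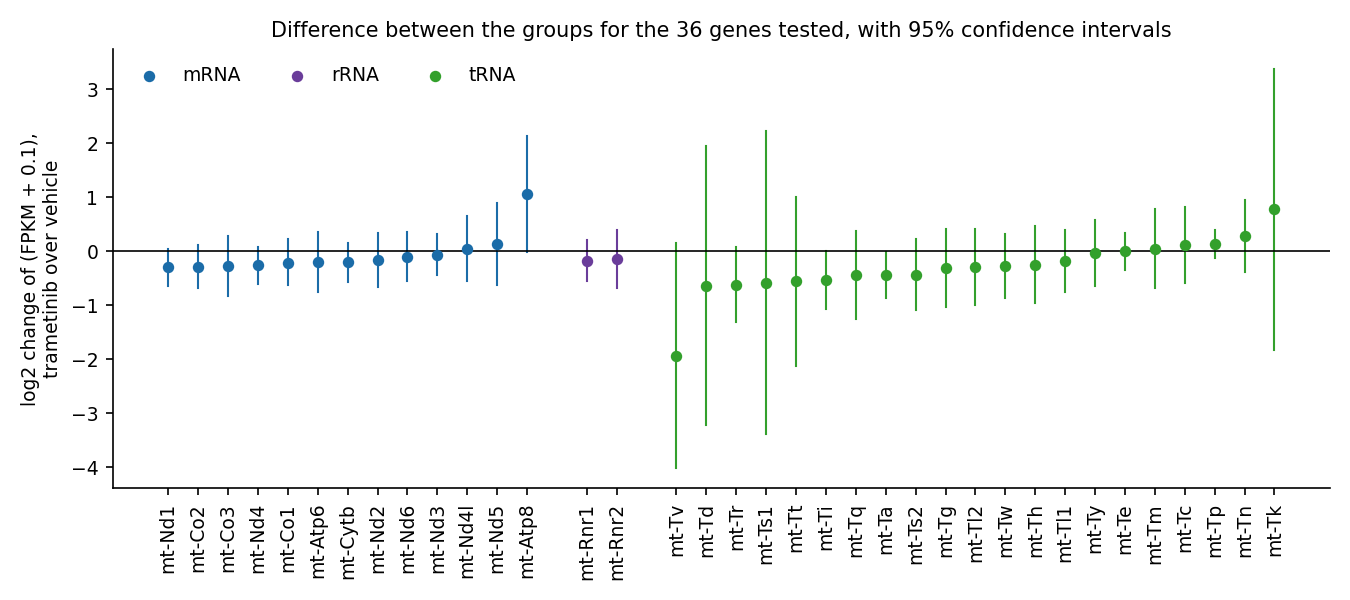
The log2 change of FPKM + 0.1, trametinib over vehicle, for the 36 genes tested, ordered by size within mRNAs, rRNAs and tRNAs. Points are limma estimates and bars 95% confidence intervals (5 hearts against 5), of which 1, that of mt-Ta from -0.87 to -0.02, leaves out 0.

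Complex I, the entry point for electrons from NADH, takes 7 of its subunits from mitochondrial DNA. mt-Nd1 had the most negative log2 change of the mRNAs. It measured 40216, 40686, 46039.5, 45939 and 43613 FPKM in vehicle hearts 1 to 5 and 31026.5, 30577, 35367, 38262 and 42536 FPKM in trametinib hearts 1 to 5. Of the latter, 4 lay below every vehicle heart, and trametinib heart 5 lay within the vehicle range. The means were 43299 ± 2780.1 and 35554 ± 5034.5 FPKM (SD, n = 5 each), a log2 change of -0.29 (SE 0.16, 95% interval -0.64 to 0.05, limma adjusted p = 0.698).

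mt-Nd5 varied most between vehicle hearts among the mRNAs, with a coefficient of variation of 59.4% against 8.19% in trametinib-treated hearts. This was seen after its values were known. It measured 4094, 4592, 17015, 12686 and 8074 FPKM in vehicle hearts 1 to 5 and 8108, 7942, 9395, 9493 and 8943 FPKM in trametinib hearts 1 to 5. All the trametinib hearts lay inside the vehicle range, which spanned 4.16-fold. The log2 change was 0.13 (SE 0.35, limma adjusted p = 0.957), and the difference in spread was not tested. Relative to mt-Nd4, a neighbour on the same strand, mt-Nd5 FPKM ran from 0.194 in vehicle heart 1 to 0.850 in vehicle heart 3, and from 0.464 to 0.640 in trametinib-treated hearts.

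mt-Nd6 is the only mRNA on the minus strand, and in human cells its transcript is known to lack the poly(A) tail on which these libraries were selected. It was the fifth by mean FPKM, at 14970.5, 14037, 29049.6, 20707 and 18350.4 FPKM in vehicle hearts 1 to 5 and 16675.5, 17915.5, 19917.5, 19638 and 14212 FPKM in trametinib hearts 1 to 5. Vehicle heart 3 was again the highest and the groups overlapped (log2 change -0.10, SE 0.21, limma adjusted p = 0.944). Whether counting used strand is not given in the sources used here, so antisense fragments of the opposite strand, and those of mt-Nd5 over the shared bases printed above, cannot be told apart from mt-Nd6.

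The other subunits of complex I covered a wide range of levels. mt-Nd2 measured 20178 ± 5957.5 FPKM in vehicle hearts and 17718 ± 3837 FPKM in trametinib-treated hearts, and mt-Nd4 20067 ± 1599.7 and 16879.5 ± 2958.7 FPKM (SD, n = 5 each). Their log2 changes were -0.16 (SE 0.23) and -0.26 (SE 0.16). mt-Nd3 and mt-Nd4l, both short, were far lower, at 744 ± 109.8 and 720.3 ± 171 FPKM for mt-Nd3 and 261 ± 109.1 and 258 ± 66.7 FPKM for mt-Nd4l in vehicle and trametinib-treated hearts, respectively.

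mt-Cytb encodes cytochrome b, the mitochondrially encoded subunit of complex III, which passes electrons from ubiquinol to cytochrome c. It measured 38385 ± 4860.1 FPKM in vehicle hearts and 33367 ± 4829 FPKM in trametinib-treated hearts (SD, n = 5 each). The log2 change was -0.20 (SE 0.17, 95% interval -0.57 to 0.16, limma adjusted p = 0.814).

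Complex IV, cytochrome c oxidase, takes its catalytic core from mt-Co1, mt-Co2 and mt-Co3. mt-Co1 was the most abundant mitochondrial mRNA, at 57318, 66397, 100912, 74448 and 76863 FPKM in vehicle hearts 1 to 5 and 58349.5, 56671, 74797, 67673 and 64124 FPKM in trametinib hearts 1 to 5. Vehicle heart 3 stood above all others, vehicle heart 1 lay among the lowest, and the groups overlapped. Between 1478894 and 2216738 fragments per heart stood behind these values. The means were 75187 ± 16292 and 64323 ± 7335 FPKM (SD, n = 5 each), a log2 change of -0.21 (SE 0.19, 95% interval -0.63 to 0.22, limma adjusted p = 0.831).

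Per length, mt-Co2 and mt-Co3 were more than an order of magnitude below mt-Co1 although all 3 proteins enter the same complex. mt-Co2 measured 2389.7 ± 426 FPKM in vehicle hearts and 1984 ± 519 FPKM in trametinib-treated hearts, with a log2 change of -0.29 (SE 0.19, limma adjusted p = 0.757). mt-Co3 measured 1702.5 ± 563.5 and 1412 ± 424.5 FPKM, with a log2 change of -0.27 (SE 0.25, limma adjusted p = 0.826). Both belong to the genes whose sequence is repeated on chromosome 1.

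Complex V, the ATP synthase, takes mt-Atp6 and mt-Atp8 from a shared mRNA in which their coding sequences overlap. mt-Atp6 measured 1544 ± 535.6 FPKM in vehicle hearts and 1304 ± 319.8 FPKM in trametinib-treated hearts (log2 change -0.20, SE 0.25). mt-Atp8 was the lowest mRNA row, with 43, 17, 47, 84 and 55 fragments in vehicle hearts 1 to 5 and 118, 49, 58, 320 and 102 fragments in trametinib hearts 1 to 5. These correspond to 12.5, 5.78, 16.2, 29.6 and 18.5 FPKM and to 33.7, 14.0, 19.4, 87.7 and 31.8 FPKM. The groups overlapped, and trametinib heart 4 alone held 320 of the group's 647 fragments, against 246 in all vehicle hearts. The log2 change of 1.06 was the largest rise among the mRNAs, but its interval held 0 (SE 0.49, 95% interval -0.02 to 2.13, limma adjusted p = 0.652), and it was 0.67 without trametinib heart 4 and 1.79 (SE 0.51, adjusted p = 0.726) without the 3 hearts with high atrial transcripts. How fragments that reach into the 43 common bases were assigned is not given in the sources used here, so the level of mt-Atp8 relative to mt-Atp6 is uncertain.

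The division of mitochondrial mRNA fragments between the complexes was nearly the same in both groups. Complex I mRNAs took 41.7% ± 1.50 in vehicle hearts and 41.8% ± 1.67 in trametinib-treated hearts, and complex IV mRNAs 42.2% ± 2.20 and 42.1% ± 0.951. The mRNA of complex III took 15.7% ± 1.36 and 15.7% ± 0.979, and those of complex V 0.377% ± 0.118 and 0.366% ± 0.0567 (SD, n = 5 each). All 4 differences were smaller than the SD of either group. Nearly all of the complex IV share was mt-Co1, at 41.1% ± 2.18 and 41.0% ± 1.07. Nearly all of the complex V share was mt-Atp6, whose sequence is repeated on chromosome 1.

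**Figure D3:**
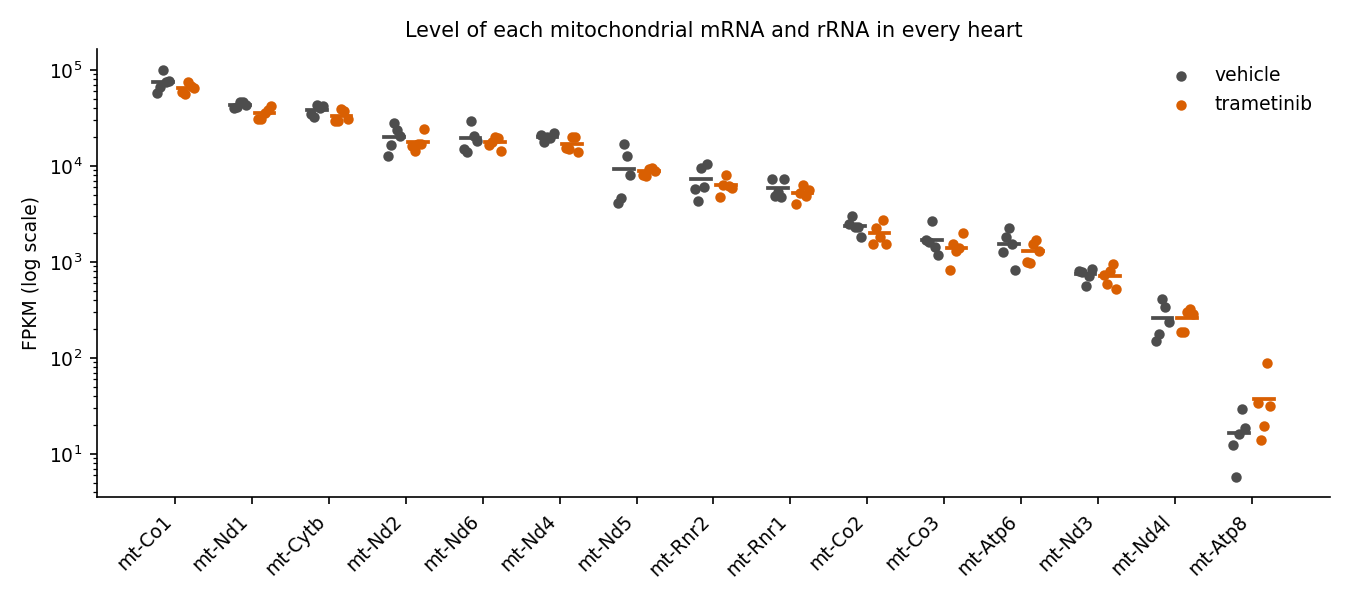
FPKM on a log axis of the 13 mRNAs and 2 rRNAs in every heart, ordered by mean level. Points are hearts and bars group means (n = 5), the levels run from 100912 FPKM for mt-Co1 in vehicle heart 3 to 5.78 FPKM for mt-Atp8 in vehicle heart 2, and the groups overlap for each gene.

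In order of mean FPKM over the 10 hearts, mt-Co1 (69755) came first, above mt-Nd1 (39426) and mt-Cytb (35876), whose values over the hearts overlapped. mt-Nd2 (18948), mt-Nd6 (18547) and mt-Nd4 (18473) followed and overlapped each other and the next gene, mt-Nd5 (9034). Then came mt-Co2 (2187), mt-Co3 (1557), mt-Atp6 (1424) and mt-Nd3 (732), each overlapping its neighbour in this order, and last mt-Nd4l (259.7) and mt-Atp8 (26.9), each apart from the gene before it. By the median, the 13 mRNAs varied more between hearts of a group than abundant nuclear transcripts, a description given without a test. Their median residual SD was 0.328 on the log2 scale. It was 0.217 for the 421 nuclear genes that averaged 100 FPKM or more and 0.246 for all genes tested. Single mRNAs ran from 0.157 (mt-Nd1) to 0.934 (mt-Atp8, which averaged below 100 FPKM). mt-Nd1, mt-Nd4 (0.195) and mt-Cytb (0.197) lay under the median of the abundant nuclear genes and the other mRNAs above it.

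mt-Rnr1 and mt-Rnr2 encode the RNAs of the small and large subunits of the mitochondrial ribosome. mt-Rnr1 measured 7321, 4917, 5369, 4774 and 7321 FPKM in vehicle hearts 1 to 5 and 3977, 5174, 6383, 4904 and 5630.2 FPKM in trametinib hearts 1 to 5, with a log2 change of -0.18 (SE 0.18, limma adjusted p = 0.844). mt-Rnr2 measured 5792, 4264, 9567, 5983 and 10569 FPKM in vehicle hearts 1 to 5 and 4751, 6316, 8103, 6234 and 5901 FPKM in trametinib hearts 1 to 5, with a log2 change of -0.15 (SE 0.25, limma adjusted p = 0.925). Both overlapped between the groups, and both estimates turned above 0 when hearts were scaled to their mitochondrial mRNA. The ratio of mt-Rnr2 to mt-Rnr1 was not constant in vehicle hearts, running from 0.791 to 1.78 with a mean of 1.23 ± 0.411, while trametinib-treated hearts gave 1.20 ± 0.0914 (SD, n = 5 each). For every 100 mitochondrial mRNA fragments there were 6.11 ± 1.53 and 6.14 ± 0.818 rRNA fragments in these poly(A)-selected libraries, which need not be their proportion in unselected RNA.

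The 22 tRNA rows, 14 on the plus strand and 8 on the minus strand, are 59 to 75 bases long and together held 9028 to 15394 fragments per heart. A fragment in such a row may come from a mature tRNA or from a precursor not yet cut, and these cannot be told apart. Strand setting and counting mode are not given in the sources used here. Precursor of the opposite strand thus cannot be told apart either, nor is it known how fragments reaching into neighbouring genes were assigned. The order of these rows by level and by strand describes the counts only. The 3 rows with the highest mean FPKM, mt-Tp, mt-Tc and mt-Te (the tRNAs for proline, cysteine and glutamate), took 54.3 to 69.5% of these fragments, and all 3 lie on the minus strand, as do 4 of the 5 highest. They are shown with mt-Tf, the tRNA for phenylalanine, which had 0 fragments in every heart. The strand of the gene is given 5′ to 3′ and the anticodon, found as the best-paired stem and loop, is in capitals. mt-Tp is at chrM:15356-15422 next to the control region, mt-Tc at chrM:5192-5257, mt-Te at chrM:14071-14139 and mt-Tf, on the plus strand, at chrM:1-68.
mt-Tp: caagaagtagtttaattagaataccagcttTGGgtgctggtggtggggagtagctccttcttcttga
mt-Tc: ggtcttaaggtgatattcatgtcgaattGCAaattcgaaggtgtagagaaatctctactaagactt
mt-Te: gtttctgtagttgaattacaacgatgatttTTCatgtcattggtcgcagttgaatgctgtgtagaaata
mt-Tf: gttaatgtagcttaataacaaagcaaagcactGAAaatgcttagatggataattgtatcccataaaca

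mt-Tp measured 3409.8, 3457, 3526, 3269.5 and 3976 FPKM in vehicle hearts 1 to 5 and 3927, 3786, 4689.7, 3569 and 3470.0 FPKM in trametinib hearts 1 to 5. It was the most even of all members, with a residual SD of 0.142 and a log2 change of 0.14 (SE 0.12, 95% interval -0.12 to 0.39, limma adjusted p = 0.820). mt-Tc measured 1316.5, 1469, 5163, 2329 and 2629 FPKM in vehicle hearts 1 to 5 and 3490.0, 2055.5, 2270.5, 2369.6 and 2354 FPKM in trametinib hearts 1 to 5. Here vehicle heart 3 lay above all others and vehicle hearts 1 and 2 below them, so the vehicle range enclosed the trametinib group (log2 change 0.11, SE 0.32).

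mt-Te measured 952, 810.3, 1278, 1139.8 and 849 FPKM in vehicle hearts 1 to 5 and 1009.6, 796, 997, 1262 and 953 FPKM in trametinib hearts 1 to 5. Its log2 change was 0.00 (SE 0.16, 95% interval -0.34 to 0.34), which leaves room for a change of about that size in either direction. mt-Ta, the tRNA for alanine and the member with the lowest p, had 49 to 99 fragments per heart. Its 74.1, 54.3, 78.5, 103.0 and 58.8 FPKM in vehicle hearts 1 to 5 overlapped the 41.4, 67.6, 64.1, 41.3 and 55.3 FPKM in trametinib hearts 1 to 5 (log2 change -0.44, SE 0.19, limma adjusted p = 0.634).

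The remaining rows spread over several orders of magnitude. At least 1 fragment was present in every heart for 17 tRNAs and in some hearts for 4, and mt-Tf had none, which allows up to 3.17 FPKM in a heart at 3 fragments. mt-Ts1 held 4 fragments in all vehicle hearts together and 4 in all trametinib-treated hearts, mt-Td 3 and 3, and mt-Tk 3 and 5. Their 95% intervals of log2 change ran from -3.38 to 2.22, from -3.22 to 1.95 and from -1.82 to 3.37. mt-Tv, the tRNA for valine, held 28 and 16 fragments and had the most negative estimate of all members, a log2 change of -1.94 (SE 0.96, 95% interval -4.02 to 0.15, limma adjusted p = 0.666). Of the 21 tRNAs tested, 15 were lower and 6 higher in trametinib-treated hearts, none past the test, with a median log2 change of -0.29. Those counted as lower include mt-Ts1 (-0.58) and mt-Td (-0.64), whose fragment totals were the same in both groups.

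**Figure D4:**
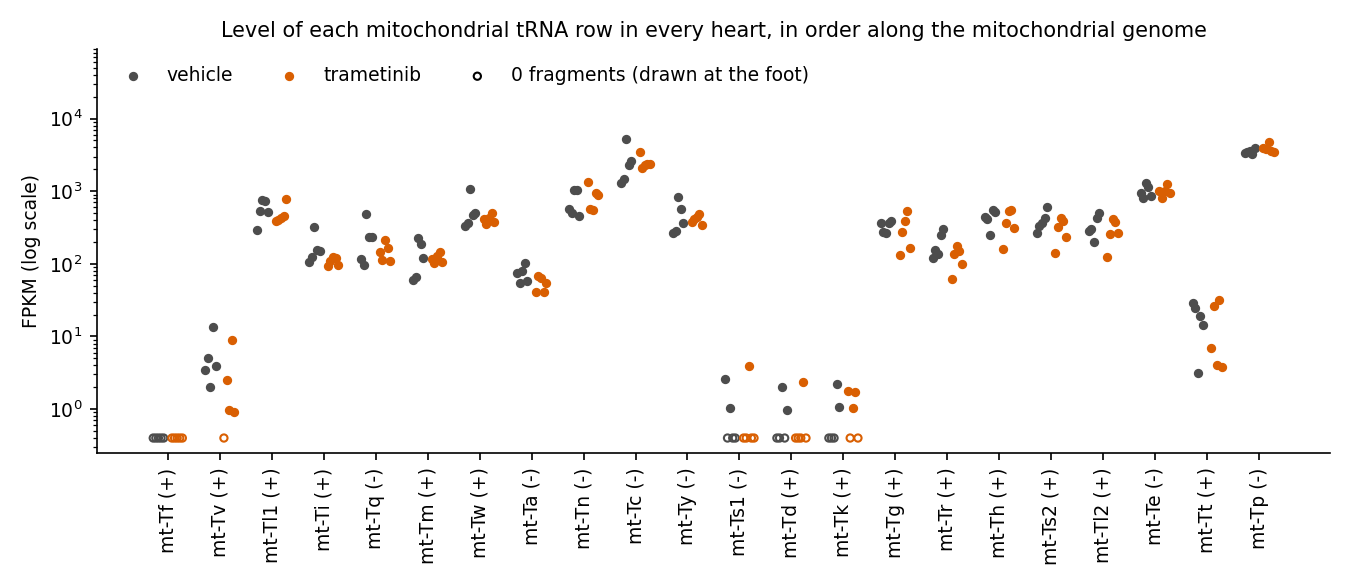
FPKM on a log axis of the 22 tRNA rows in every heart, in their order along the mitochondrial genome, with the strand in brackets and hearts with 0 fragments as open circles at the foot. mt-Tp, mt-Tc and mt-Te stand highest, mt-Tf has 0 fragments in all 10 hearts, and mt-Ts1, mt-Td and mt-Tk have 0 in 5 or more.

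Of the 13 mRNAs, 5 were repeated almost whole on chromosome 1. At least 97.6% of the 100-base windows of mt-Co2, mt-Co3, mt-Atp6, mt-Nd3 and mt-Nd4l were also found in transcripts annotated there, against 60.8% for mt-Nd4, 26.3% for mt-Co1 and 0% for mt-Nd1, mt-Nd2, mt-Nd5, mt-Nd6, mt-Cytb, mt-Atp8 and both rRNAs. Annotated transcripts elsewhere in the nuclear genome added to this, so that over all of them mt-Co1 reached 30.8% and mt-Nd2 3.2% at 100 bases. With windows of 50 bases the shares were 51.1% for mt-Co1, 8.2% for mt-Nd2, 7.6% for mt-Nd5 and 1.0% for mt-Rnr2, and read length is not given in the sources used here. Gm28661, Gm28437, Gm10925, Gm10222 and Gm28439 matched mt-Co2, mt-Co3, mt-Atp6, mt-Nd4l and the first 876 bases of mt-Nd4 without a mismatch. The spacing of neighbouring copies equalled that of the same bases in mitochondrial DNA for 5 of 6 pairs. Between the copies of mt-Co2 and mt-Atp6 lie 233 bases on chromosome 1, as many as in mitochondrial DNA, where they hold mt-Tk and most of mt-Atp8. These stretches carry no annotated transcript and were not searched, since no genome sequence was used here, so 0% for mt-Atp8 covers annotated transcripts only.

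The 5 mRNAs repeated almost whole had means from 259.7 to 2187 FPKM. Of the 8 others, mt-Atp8 was lower still, at 26.9 FPKM with 0% of its windows shared, and the remaining 7 ran from 9034 to 69755 FPKM. Together the 5 mRNAs repeated almost whole took 1.58% ± 0.377 of mitochondrial mRNA fragments in vehicle hearts and 1.52% ± 0.224 in trametinib-treated hearts (SD, n = 5 each). Some copies held a sizeable part of the fragments of their pair. Gm28661 took 22.9 to 41.8% of the fragments in it and mt-Co2 together, and Gm10925 28.0 to 53.7% with mt-Atp6. Joined to their copies, mt-Co2 reached 3279 FPKM and mt-Co3 2252 FPKM over all hearts, still far below mt-Co1. How fragments that match both places were assigned or dropped is not given in the sources used here, so the levels of these rows relative to the other mRNAs are uncertain, and what share of the copies' fragments is mitochondrial RNA was not tested.

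The summed share of the copies was lower in trametinib-treated hearts, a sum given without a test. It was 0.357, 0.274, 0.277, 0.315 and 0.694% of all fragments in vehicle hearts 1 to 5 and 0.183, 0.231, 0.215, 0.224 and 0.234% in trametinib hearts 1 to 5. The groups did not overlap, and vehicle heart 5 stood far above the rest. As a share of copies and mitochondrial fragments together they did overlap, at 0.786 to 2.18% in vehicle hearts and 0.743 to 0.954% in trametinib-treated hearts. The excess of vehicle heart 5 lay in Gm29216, at 9547.7 FPKM there against 955.6 to 2386 FPKM in the other vehicle hearts and 524 to 1016 FPKM in trametinib-treated hearts. No copy passed the test. Gm29216 had a log2 change of -1.49 (SE 0.52, limma adjusted p = 0.521), or -0.94 without vehicle heart 5 (adjusted p = 0.467), Gm28661 of -0.52 (SE 0.15, adjusted p = 0.440) and Gm28437 of -0.57 (SE 0.24, adjusted p = 0.625). The other 4 ran from -0.34 (Gm28438) to 0.23 (Gm28439). The summed macrophage markers, a sum weighted towards Lyz2, also lay lower in the trametinib hearts, from 190 to 249 FPKM. They were highest in vehicle heart 5, at 433 FPKM, and their part was not tested. With copies joined to their mitochondrial genes, the log2 change was -0.37 for mt-Co2 (SE 0.15, limma adjusted p = 0.584), -0.39 for mt-Co3 (SE 0.21, adjusted p = 0.699) and -0.24 for mt-Atp6 (SE 0.19, adjusted p = 0.806), and again no member passed.

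**Figure D5:**
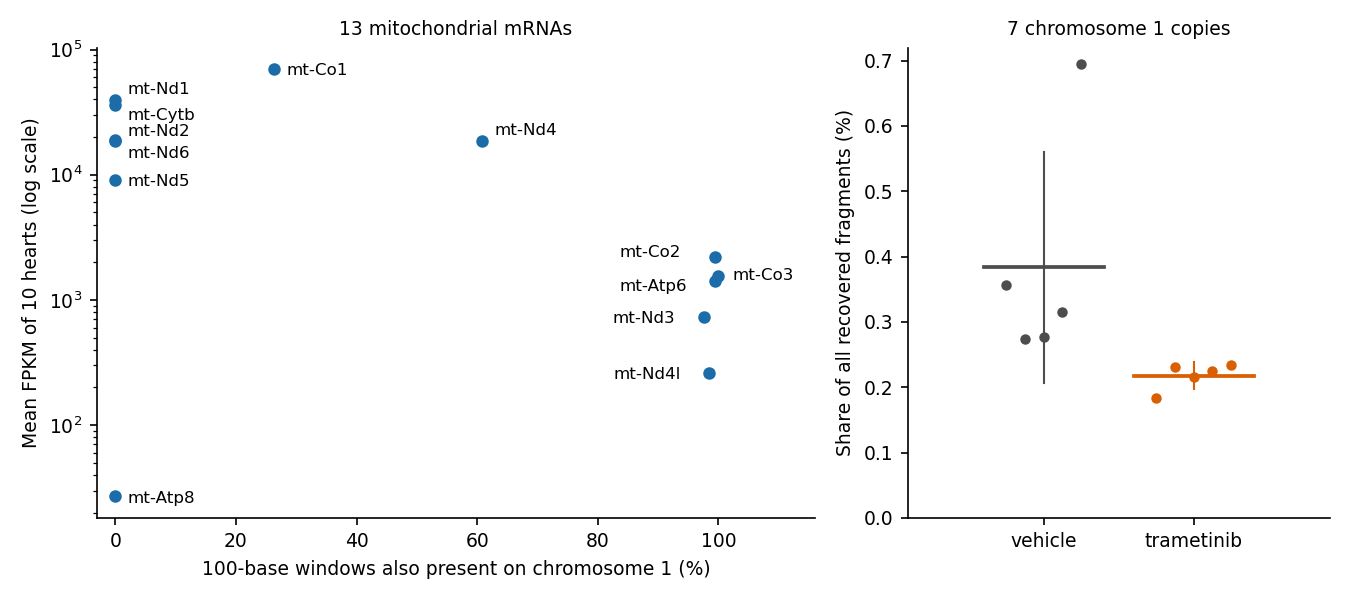
Left, mean FPKM of each of the 13 mRNAs (log axis, 10 hearts) against the percentage of its 100-base windows found in annotated chromosome 1 transcripts, where the 5 genes above 97% lie between 259.7 and 2187 FPKM. Right, the share of all fragments (%) in the 7 copies per heart, with mean and SD (n = 5), where vehicle heart 5 is at 0.694% and the trametinib hearts lie between 0.183 and 0.234%.

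The nuclear genes that maintain and express mitochondrial DNA, and those for nuclear partner subunits of the complexes, showed no call either. Of 140 genes on 6 lists, 139 were in the table, and of the 135 counted from the fit 0 passed the test. At an unadjusted p under 0.05 there were 7 (6 higher, 1 lower), or 5.19% against 7.62% of all genes tested. The median log2 change was 0.01 for transcription and replication, 0.03 for RNA processing and stability, 0.06 for translation factors, 0.06 for aminoacyl-tRNA synthetases and 0.09 for regulators of biogenesis, beside 0.01 for all genes tested. Among the nuclear partner subunits of complexes I, III, IV and V, 33 of 36 were higher and 3 lower in trametinib-treated hearts, with a median of 0.14 and 0 called. Of all 12602 genes tested, 6567 were higher and 6035 lower, and 0.0794% were called. The median was 0.0344 over genes that averaged 5 FPKM or more. These subunits share each heart's library, and other nuclear genes of like abundance were not counted apart.

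Core factors of mitochondrial transcription and replication were within a small distance of 0. Tfam, which packages mitochondrial DNA and starts transcription, measured 8.45 ± 1.17 FPKM in vehicle hearts and 8.25 ± 0.610 FPKM in trametinib-treated hearts (SD, n = 5 each; log2 change -0.03, SE 0.11). The log2 change was 0.03 (SE 0.20) for Polrmt, the RNA polymerase, -0.07 (SE 0.16) for Polg, the DNA polymerase, and 0.14 (SE 0.13) for Twnk, the replicative helicase. Lrpprc and Slirp, which form a complex that stabilises mitochondrial mRNAs, gave 0.17 (SE 0.19) and 0.22 (SE 0.32).

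The nuclear genes named here had an unadjusted p under 0.05, and none passed the limma test after adjustment. Ptcd1, a pentatricopeptide repeat protein that acts on mitochondrial RNA, measured 3.94 ± 0.686 FPKM in vehicle hearts and 5.61 ± 0.832 FPKM in trametinib-treated hearts (SD, n = 5 each), a log2 change of 0.50 (SE 0.14, limma adjusted p = 0.413). Oxa1l, which inserts mitochondrially made proteins into the inner membrane, went from 17.1 ± 1.30 to 19.7 ± 1.01 FPKM without overlap of the groups (log2 change 0.20, SE 0.08, adjusted p = 0.591). The log2 change was 0.31 for Mgme1, a nuclease of mitochondrial DNA, 0.26 for the pseudouridine synthase gene Rpusd4, 0.32 for Ears2, the glutamyl-tRNA synthetase that charges mt-Te, 0.21 for the ATP synthase subunit gene Atp5c1 and -0.38 for Pprc1, a coactivator related to PGC-1.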

How the data were processed

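RNA of the hearts was harvested with an RNeasy kit, mRNA was purified on poly-T beads, and cDNA was primed with random hexamers. The submitters' processing notes name fastp, STAR 2.5, HTSeq 0.6.1 and the build mm10, while read length, strand setting, counting mode and annotation release are not given in the sources used here. The authors deposited FPKM for 54532 genes, 1 column per heart, already normalized for gene length and library size. In every heart the product of FPKM and gene length came in whole steps (100% within 0.01), from which fragments were recovered. The same steps give the library size behind the FPKM, which was not the recovered total. It was 14218190 in vehicle heart 3, with 15371692 fragments recovered, and 14416591 in vehicle heart 2, with 13647167 recovered. How these sizes were set is not given in the sources used here. Depth bears on the low tRNA rows most, and floors of 3 fragments cover counting error only.

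Log2(FPKM + 0.1) was compared with limma 3.58.1 in R 4.3.3 (eBayes with trend, two-sided) for genes that averaged 0.5 FPKM or more, with Benjamini-Hochberg adjustment over all 12602 genes tested and a threshold of 0.05, and the fit was tested on simulated data. The 0.1 added makes the log2 changes of low genes smaller where every heart held fragments. Where some hearts held no fragment, the estimate can be larger than the difference of the means or of opposite sign. The log2 change of mt-Ts1 was -0.58, although its mean was 0.721 FPKM in vehicle hearts and 0.789 FPKM in trametinib-treated hearts. Copies were found with blastn 2.17.0, and summaries used Python 3.11.15, pandas 2.3.3 and numpy 2.4.6. Membership follows the annotation, but this gene set, the lists and the alternatives were taken up with earlier results of these data known. Named in full were the highest and lowest mRNA, mt-Nd6, mt-Atp8, the mRNAs with the largest rise and fall, both rRNAs and the 3 highest tRNAs, and of nuclear lists up to 3 genes in each direction with an unadjusted p under 0.05 and 6 core factors. Sums over members were given no p. No sex term could be fitted. Of the listed genes, Prorp was matched by no symbol in the table, and Atp5o, a symbol shared by 2 identifiers, was left out of its list. Mterf1a, Mterf1b and Primpol were in the table but were not among the genes counted from the fit. Alternatives were other pseudocounts, filters, scales, weights and moderation, voom, a replicate block, and hearts left out. Joining or counting the chromosome 1 copies with the mitochondrial genes was an alternative chosen after seeing the data.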

Additional observations from a re-analysis of the deposited data

Results flagged for a closer look

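For independent, normally distributed values, Dixon's criterion would set a single heart apart from the other 4 in about 1 in 20 groups, or 4.8 of 96. The values here share libraries, and for mt-Ts1 and mt-Td the other 4 trametinib hearts were all at 0, so that rate does not hold here. Within groups of 5 hearts, single hearts stood apart by this criterion in 12 of 96 groups of values. Among the mRNAs these were mt-Nd2 in trametinib heart 5 at 24352.3 FPKM (others 14477 to 16945) and mt-Atp8 in trametinib heart 4 at 87.7 FPKM (others 14.0 to 33.7). Among the tRNAs, vehicle heart 3 stood above the rest for mt-Ti at 322.1 FPKM (others 105.1 to 156.1) and for mt-Tw at 1088.6 FPKM (others 328.2 to 500.5). mt-Tl1 was high in trametinib heart 5 at 782.4 FPKM (others 390.5 to 460.0) and mt-Tc in trametinib heart 1 at 3490.0 FPKM (others 2055.5 to 2369.6). The rest were rows of few fragments, mt-Tv at 13.5 FPKM in vehicle heart 4 and 8.91 FPKM in trametinib heart 4, mt-Ts1 at 3.95 FPKM in trametinib heart 3 and mt-Td at 2.4 FPKM in trametinib heart 4. Of the chromosome 1 copies, Gm29216 stood apart in vehicle heart 5 at 9547.7 FPKM (others 955.6 to 2386.1), and with it the copies' share of fragments at 0.694% (others 0.274 to 0.357).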

How the results depend on the processing

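The count of members called was 0 under all 26 alternatives, the lowest adjusted p being 0.335 (mt-Atp8, with the replicate number as a block). Nothing in the labels says that replicate numbers pair the hearts. In their deviations from group means, same-numbered hearts correlated at -0.154 to -0.0209, and none best with its own number. With 5 hearts per group this does not settle whether hearts were paired. The replicate block called 0 members, and 4 genes in all against 10 without it. Over all genes the count ran from 2 (mean of at least 5 FPKM) to 18 (array weights), and it was 5 without vehicle replicate 2 or without the 3 hearts with high atrial transcripts. The mitochondrial share was lower with trametinib by -1.98 to -4.55 percentage points with 1 heart left out, and the ratio to nuclear fragments differed by -6.72. List medians stayed within -0.04 and 0.22, apart from the chromosome 1 copies at -0.46 to -0.23. Of 468 single-gene values, 433 kept their direction, 33 turned, 2 were 0 (mt-Co1 and mt-Nd6 after quantile normalization), and the cause was not tested. On the mitochondrial mRNA scale these were mt-Rnr1 (0.03), mt-Rnr2 (0.06), mt-Nd2 (0.05), mt-Atp6 (0.004), mt-Nd3 (0.14), mt-Nd6 (0.11) and mt-Cytb (0.0013). With array weights they were mt-Rnr2 (0.04) and mt-Nd6 (0.02), on the TPM scale mt-Nd3 (0.01), after quantile normalization mt-Nd4l (-0.02) and mt-Cytb (0.03), and on the nuclear-fragment scale mt-Te (-0.03). Without vehicle 4, vehicle 5 and trametinib 2 they were mt-Nd2 (0.03) and mt-Nd3 (0.06). With 1 heart left out, the values ran from -0.32 to 0.01 for mt-Rnr2, -0.17 to 0.04 for mt-Nd3, -0.13 to 0.23 for mt-Nd4l, -0.11 to 0.40 for mt-Nd5, -0.20 to 0.06 for mt-Nd6, -0.08 to 0.41 for mt-Tc and -0.08 to 0.09 for mt-Te. Depth left mt-Ts1, mt-Td and mt-Tk with 6 to 8 fragments over all hearts.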
